A study of Mus musculus with 82 samples.

Results

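Chromatin accessibility was compared between hematopoietic stem cells (HSCs) of old and young mice (OHSCs and YHSCs). The comparison used 4 young and 4 old ATAC-seq libraries, 8 of the 82 samples of the study, chosen by their labels as the HSC libraries with counts per consensus region. Of 127695 consensus regions, 89245 passed the filter of more than 1.5 CPM (counts scaled to the library's total) in at least 4 libraries and were tested. Because each age had 4 libraries, a region open at only 1 age could pass through that age alone.

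All mice were male C57BL/6J, the common inbred laboratory strain, and carried no other allele or treatment named in the labels. YHSCs came from mice of 3 to 4 months bought from The Jackson Laboratory, and OHSCs from mice of 24 to 26 months of the colony of the National Institute on Aging, so age and colony cannot be told apart. HSCs were sorted as Lin-Sca1+c-Kit+ (LSK) CD34-Flk2-CD150+ bone marrow cells. The sources used here do not say whether cells of several mice were pooled for a library, so p-values measure only the spread between libraries. The ATAC-seq libraries held 25280311, 15427933, 26042771 and 26260337 counted reads in YHSCs and 20033166, 25920194, 25151543 and 25580312 in OHSCs, and mitochondrial regions took 4.63% to 6.49% of them. Another pair of readouts of the same gate was read beside accessibility: mRNA-seq (4 young libraries of pooled mice and 8 old libraries of single mice) and the histone mark H3K27ac (2 libraries per age).

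In ATAC-seq, a transposase cuts DNA where it is not wrapped tightly in nucleosomes, so the number of reads over a region measures how open that region was. Open regions are mostly promoters, which lie at the starts of genes, and enhancers, which bind transcription factors and can act over long distances. HSCs maintain themselves and form every blood lineage, and with age their number grows while their output of lymphocytes falls. In blood stem cells, factors of the GATA, RUNX, ETS and AP-1 families bind many enhancers.

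Sequences of 5 regions are shown first, each as 200 bp around the middle of the region on the plus strand of mm10 (GRCm38), with the letters of a factor's motif in capitals. They were chosen because they carry the letters whose shares differed most between regions that gained and regions that lost accessibility. The first 3 gained accessibility in OHSCs: an AP-1 motif (TGANTCA) at chr15:44176053-44176252, which lies 20.03 kb from the start of Trhr (the receptor of thyrotropin-releasing hormone), a GATA motif (AGATAA) at chr3:67601617-67601816 within an intron of Mfsd1 (a lysosomal membrane transporter), and a RUNX motif (TGTGGTT) at chr13:79443097-79443296, 1243 kb from the start of Nr2f1 (an orphan nuclear receptor). The last 2 lost accessibility: a PU.1 motif (GAGGAAGT, here on the minus strand) at chr17:81679785-81679984 in an intron at Slc8a1 (a sodium-calcium exchanger), and an E-box (CAGCTG) at chr8:27106757-27106956 in an intron of Adgra2 (an adhesion G protein-coupled receptor).
Trhr, AP-1, gained: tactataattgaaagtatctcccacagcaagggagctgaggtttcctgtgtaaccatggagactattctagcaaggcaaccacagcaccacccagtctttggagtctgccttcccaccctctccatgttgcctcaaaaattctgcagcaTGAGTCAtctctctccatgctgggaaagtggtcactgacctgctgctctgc
Mfsd1, GATA, gained: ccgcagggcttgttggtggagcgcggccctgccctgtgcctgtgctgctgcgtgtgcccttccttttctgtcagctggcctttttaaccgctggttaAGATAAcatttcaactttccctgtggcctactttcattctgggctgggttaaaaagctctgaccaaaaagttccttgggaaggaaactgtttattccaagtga
Nr2f1, RUNX, gained: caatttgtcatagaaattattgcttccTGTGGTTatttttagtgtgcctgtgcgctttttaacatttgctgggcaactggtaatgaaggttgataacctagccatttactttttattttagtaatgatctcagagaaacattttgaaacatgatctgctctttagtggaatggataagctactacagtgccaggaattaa
Slc8a1, PU.1, lost: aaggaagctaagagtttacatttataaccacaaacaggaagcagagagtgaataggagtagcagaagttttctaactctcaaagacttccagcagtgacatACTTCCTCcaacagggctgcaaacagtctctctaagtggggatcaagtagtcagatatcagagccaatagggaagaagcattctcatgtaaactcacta
Adgra2, E-box of SCL, lost: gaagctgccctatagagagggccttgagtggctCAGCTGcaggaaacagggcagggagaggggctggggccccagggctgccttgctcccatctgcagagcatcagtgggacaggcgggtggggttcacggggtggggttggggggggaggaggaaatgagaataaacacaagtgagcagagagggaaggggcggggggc

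At the Trhr region, YHSC replicates 1 to 4 had 2.46, 2.99, 3.05 and 2.71 CPM and OHSC replicates 5 to 8 had 25.0, 31.0, 26.6 and 22.7 CPM (log2 fold change 3.24 ± 0.11 SE, edgeR adjusted p = 1.46e-30). At the Nr2f1 region the same libraries had 4.08, 4.72, 4.35 and 4.00 CPM in YHSCs and 28.3, 35.3, 25.5 and 25.6 CPM in OHSCs (log2 fold change 2.75 ± 0.10, edgeR adjusted p = 2.51e-28). Both regions were named from called regions whose ages did not overlap. At the region near Slc8a1 the YHSC values were 11.8, 11.04, 10.5 and 11.5 CPM and the OHSC values 4.35, 4.73, 5.03 and 3.59 CPM (log2 fold change -1.34 ± 0.12, edgeR adjusted p = 2.33e-13).

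A region is called gained or lost below where it changed by more than 1.5-fold and the edgeR quasi-likelihood test gave an adjusted p under 0.01. Of the 89245 tested regions, 8999 were gained (10.1%) and 2592 lost (2.90%). In bulk samples, a larger share of cells with an open region and a more open region in each cell cannot be told apart.

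Motif letters were searched on both strands within 150 bp of the middle of each region, and the shares below are those of intron and intergenic regions. AP-1 letters, which stood in 12.7% of all consensus regions, were found in 21.5% of gained, 8.25% of lost and 12.7% of uncalled regions. GATA letters, in 14.8% of all consensus regions, were found in 22.7% of gained, 11.9% of lost and 16.1% of uncalled regions. RUNX letters, in 12.3% of all consensus regions, were found in 21.4% of gained, 8.49% of lost and 12.9% of uncalled regions. The 3 families therefore had the same order, with the largest share among gained and the smallest among lost regions. The letters of NF-E2 (GCTGAGTCA, in 2.07% of all consensus regions), a factor of megakaryocytes and erythroid cells, contain the AP-1 letters and followed them, with 3.65% of gained and 1.24% of lost regions.

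The order was the opposite for PU.1, the ETS factor of myeloid and lymphoid cells. Its letters stood in 7.21% of all consensus regions and in 5.32% of gained, 12.7% of lost and 7.93% of uncalled regions. E-box letters of SCL-like factors, in 18.0% of all consensus regions, were found in 16.4% of gained, 22.4% of lost and 18.6% of uncalled regions. The core letters of CTCF (AGGGGGC, in 7.71% of all consensus regions), a factor of chromatin loops, stood in 2.90% of gained, 7.70% of lost and 7.59% of uncalled regions, and those of KLF/SP factors (GGGCGGGG, in 5.31% of all consensus regions) in 1.40%, 3.53% and 3.00%. Gained regions were poorer in G and C (median 44.4%) than lost (50.5%) and uncalled regions (48.7%), and the part of base composition in these shares was not tested. A match is only a stretch of letters and does not show that a factor was bound.

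**Figure D1:**
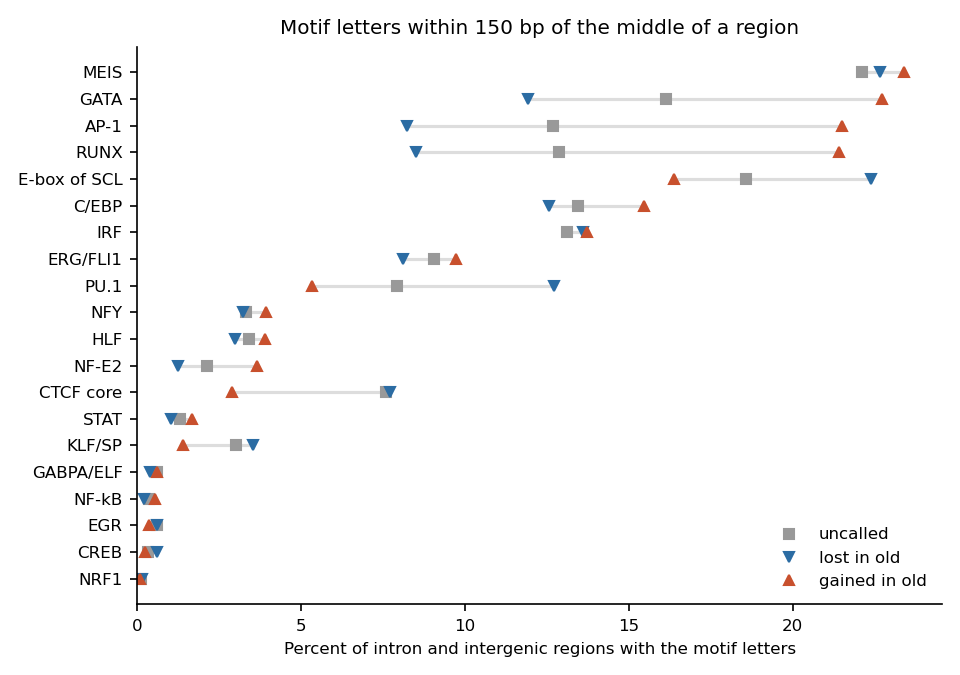
Percent of intron and intergenic regions that held the letters of each motif within 150 bp of their middle, for regions gained in OHSCs (upward triangles), lost (downward triangles) and uncalled (squares). AP-1, GATA and RUNX letters were found in 21.5%, 22.7% and 21.4% of gained regions against 8.25%, 11.9% and 8.49% of lost ones, and PU.1 letters in 5.32% against 12.7%.

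The share of gained regions grew with the number of the 3 motif families present. With none of the AP-1, GATA and RUNX letters, 9.11% of 42010 intron and intergenic regions were gained. With 1 family it was 16.3% of 21896 regions, with 2 families 22.6% of 3750, and with all 3 families 30.9% of 207 regions.

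Gains were far from gene starts and in regions that were weakly open in YHSCs. The median distance to the nearest start of a protein-coding transcript was 53194 bp for gained, 15061 bp for lost and 16061 bp for uncalled regions, and 35.97% of gained and 11.4% of lost regions lay beyond 100 kb. Of promoter regions 1.91% were gained, of exon regions 7.10%, of intron regions 11.2% and of intergenic regions 13.6%. When regions were divided into 5 equal groups by their mean level in YHSCs, 25.996% of the lowest group were gained, and then 11.7%, 7.87%, 4.11% and 0.751% in the groups above it. This order uses the YHSC values that also enter the fold change, so it is a description of where gains lay and no independent result.

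The change in balance was visible in each library as a share of reads. Promoter regions took 47.1%, 47.6%, 47.6% and 47.4% of reads in YHSC replicates 1 to 4 and 44.4%, 43.7%, 43.8% and 44.5% in OHSC replicates 5 to 8. The difference was -3.35 percentage points (47.5% ± 0.249 against 44.1% ± 0.402, SD, n = 4 each), and an exact two-sided permutation test gave p = 0.0286, the smallest that 4 against 4 libraries allow (0.0381 after Benjamini-Hochberg adjustment over 4 places). The share of reads in introns was 1.60 points higher and that in intergenic regions 1.77 points higher in OHSCs, each without overlap (exact permutation p = 0.0286), whereas the share in exons differed by less than its spread (-0.018 points, exact permutation p = 0.286).

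Among intron and intergenic regions, those under a peak of H3K4me3, the mark of promoters and strong enhancers, were gained for 4.05%, against 15.03% of those without. For H3K27ac, the mark of active enhancers, the shares were 10.3% with and 13.2% without a peak, and for H3K36me3, the mark of transcribed gene bodies, 9.75% and 13.1%. For H3K27me3, the mark of Polycomb repression, the shares were 12.4% with and 12.2% without a peak.

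The 8 largest gains among regions whose ages did not overlap, 1 region per nearest gene, lay near Tmem132b, Mfsd1, Grm7, Kcnh8, Syt9, Serpina1f, Rbfox1 and Adam23. The region chr5:125612447-125612891 in an intron of Tmem132b, a transmembrane protein, had 0.119, 0.133, 0.153 and 0 CPM in YHSCs and 2.65, 1.65, 1.79 and 3.00 CPM in OHSCs (log2 fold change 4.47 ± 0.41, edgeR adjusted p = 2.14e-13). The region chr16:6321170-6322128 in an intron of Rbfox1, a splicing regulator of neurons, was far stronger, with 0.990, 1.73, 2.10 and 1.22 CPM in YHSCs and 23.4, 24.9, 21.97 and 21.5 CPM in OHSCs (log2 fold change 3.94 ± 0.13, edgeR adjusted p = 1.46e-30). In both, the separation of the ages follows from that choice of regions. Tmem132b mRNA was also higher in OHSCs (2.64 to 3.39 CPM in 4 young and 5.86 to 25.5 CPM in 8 old libraries, edgeR adjusted p = 0.009), whereas Rbfox1 mRNA was below 1 CPM in each library (0.49 to 0.824 in young and 0.209 to 0.965 CPM in old, edgeR adjusted p = 0.735).

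The mRNA of the nearest gene passed the test at 1 of 4 further regions with large gains. At chr17:52995990-52996816, 394 kb from the potassium channel gene Kcnh8, YHSCs had 0.832, 0.997, 0.648 and 0.191 CPM and OHSCs 11.6, 12.7, 7.88 and 10.9 CPM (log2 fold change 4.08 ± 0.22). At chr10:74147716-74148668 in an intron of Pcdh15, a protocadherin of sensory hair cells, YHSCs had 1.43, 0.931, 1.14 and 0.991 CPM and OHSCs 14.5, 17.0, 13.4 and 15.5 CPM (log2 fold change 3.72 ± 0.15). At chr1:63517681-63518412 in an intron of Adam23, a cell adhesion protein of the brain, the values were 0.396, 0.665, 0.801 and 0.534 against 9.005, 8.58, 6.67 and 11.2 CPM (log2 fold change 3.89 ± 0.20). The mRNA of Kcnh8, Pcdh15 and Adam23 did not pass the test (edgeR adjusted p = 0.376, 0.869 and 0.786). It was low, with means in young and old libraries of 0.617 and 0.401 CPM for Kcnh8, 2.50 and 2.31 for Pcdh15 and 1.74 and 1.52 for Adam23. Near Syt9, a calcium sensor of vesicle release, both did: the region chr7:107321979-107322598 had 0.515, 0, 0.458 and 0.0763 CPM in YHSCs and 6.35, 4.23, 2.81 and 6.01 CPM in OHSCs (log2 fold change 4.04 ± 0.43), and Syt9 mRNA rose, with 1.08 to 1.78 CPM in young and 2.01 to 5.48 CPM in old libraries (log2 fold change 1.58 ± 0.23, edgeR adjusted p = 1.18e-05).

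**Figure D2:**
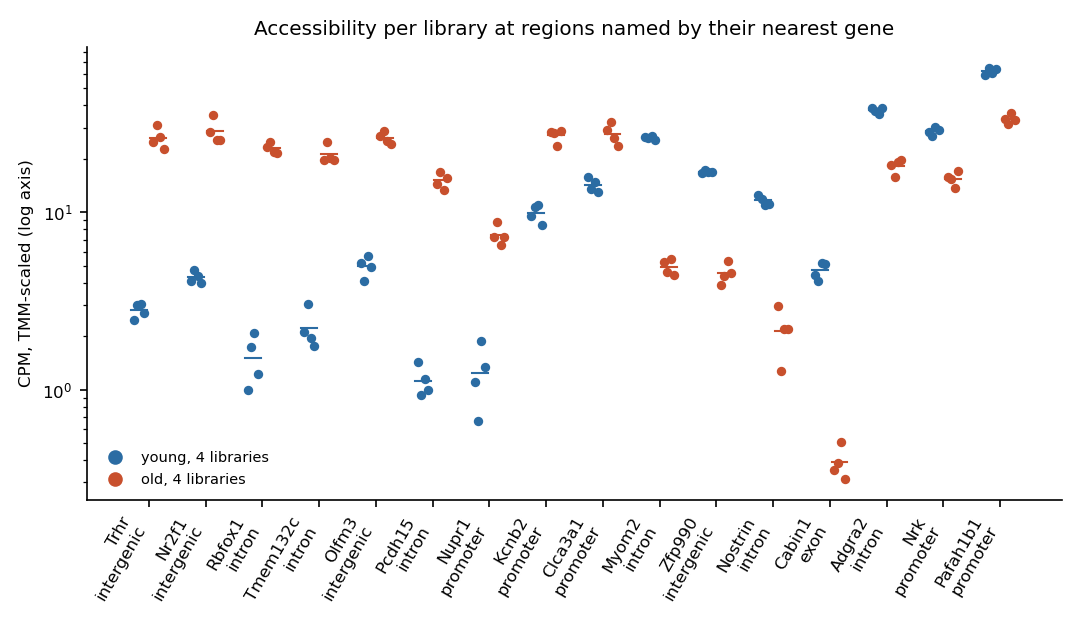
CPM of each library on a log axis at 16 regions named by their nearest gene and place, with YHSC libraries at the left and OHSC libraries at the right of each pair and bars at the means. Values range from 2.46 to 3.05 against 22.7 to 31.0 CPM near Trhr to 59.7 to 65.4 against 31.5 to 36.1 CPM at the Pafah1b1 promoter. Regions named for their change were taken only where the ages did not overlap, so the separation seen here is no result.

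Of the tested regions, 702 were gained by more than 2 on the log2 scale, of which 12 were promoters, 27 exon, 298 intron and 365 intergenic regions. Losses of that size were seen in 42 regions.

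Several genes had gained regions over long stretches of their surroundings. Of the 65 tested regions nearest to Cntnap2, an adhesion protein of axons, 23 were gained and 0 lost. At its region with the largest gain, chr6:44849046-44850152, YHSCs had 1.94, 1.60, 1.56 and 2.02 CPM and OHSCs 9.96, 15.6, 6.32 and 8.78 CPM. For Fgf12, an intracellular growth factor homolog that binds sodium channels, 20 of 35 regions were gained and 0 lost, for Negr1, a neuronal adhesion protein, 19 of 21 and 0, and for Nr3c2, the mineralocorticoid receptor, 19 of 30 and 1. For Adam6a, in the immunoglobulin heavy chain locus, 21 of 39 regions were gained and 5 lost. At Negr1 the counts summed over all 21 regions rose by 1.11 ± 0.05 on the log2 scale (edgeR adjusted p = 7.01e-18), and its mRNA stayed under 1.5 CPM in each library of both ages (0.453 to 1.22 in young and 0.251 to 1.45 in old).

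Alcam, an adhesion protein also called CD166 that is among the genes known to rise with HSC age, had 22 gained and 1 lost of 48 regions. Its mRNA rose, with 52.8 to 68.8 CPM in young and 142 to 189 CPM in old libraries (log2 fold change 1.43 ± 0.09, edgeR adjusted p = 7.95e-09). The region with the largest gain lay 572 kb from its start (0.475, 0.598, 0.458 and 0.572 CPM in YHSCs, 2.90, 5.08, 3.04 and 3.51 CPM in OHSCs). The Alcam promoter was not called, with 113, 120, 105 and 107 CPM in YHSCs and 103, 104, 101 and 103 CPM in OHSCs (log2 fold change -0.12 ± 0.04, edgeR adjusted p = 0.0236), and the sign of that value turned under 3 other scalings.

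Counts summed over all regions nearest to a gene rose for 498 of 17292 genes (2.88%) and fell for 219 (1.27%). Among the 34 lists of genes, the one of neurotransmitter receptors and synapse proteins had the largest share of gained regions. Of its 865 tested regions, 290 were gained and 5 lost, with a median log2 fold change of 0.37 beside -0.01 over all tested regions. At promoters, 24 of its 82 were gained and 0 lost, beside 303 (1.91%) and 329 (2.07%) of all 15899 promoter regions. Of its 62 genes tested for mRNA, 5 rose and 3 fell, beside 4.80% and 2.77% of all genes, and the median mRNA difference was -0.16 on the log2 scale.

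The Grm7 promoter, of a glutamate receptor, is a member of that list, with 1.47, 1.06, 1.64 and 1.11 CPM in YHSCs and 6.95, 8.66, 4.84 and 6.48 CPM in OHSCs (log2 fold change 2.32 ± 0.19), while Grm7 mRNA stayed between 0.165 and 0.702 CPM over both ages. The promoter of Gabra4, a subunit of the receptor for the transmitter GABA, gained with its mRNA. The Gabra4 promoter had 22.9, 19.1, 22.4 and 19.6 CPM in YHSCs and 39.4, 40.5, 34.6 and 38.1 CPM in OHSCs (log2 fold change 0.85 ± 0.07, edgeR adjusted p = 8.35e-16). Gabra4 mRNA rose, with 0.497 to 0.742 CPM in young and 8.79 to 14.2 CPM in old libraries.

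Among the other lists with genes of the cell surface or of nerve cells, 4 had gained shares of 16.7% to 23.9% beside 10.1% of all regions. For ion channels 121 of 507 regions were gained and 7 lost, for integrins, cadherins and selectins 129 of 594 and 14, for axon guidance 125 of 663 and 32, and for collagens and other matrix proteins 102 of 611 and 22. The share of lost regions in the axon guidance list was 4.83%, beside 2.90% of all regions. The gained share stayed above that of all regions for these 4 lists and the synapse list when the libraries were scaled on promoters, which gained 12361 regions in all, or with an offset that follows the mean level, which gained 7810. Lists with other surface receptors lay below the share of all regions. For cytokine receptors and JAK-STAT 32 of 370 regions were gained (8.65%) and 12 lost. For TNF, Toll-like receptors and NF-kB it was 31 of 336 (9.23%) and 4.

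The list of genes that rise in aged HSCs held 101 gained and 4 lost of 335 regions (median log2 fold change 0.27), and 38 of its 42 genes rose in mRNA and 1 fell. That list was written from general knowledge of HSC aging with earlier results of these data known, so its counts are no independent result. For the 38 self-renewal factors of HSCs, 45 of 687 regions were gained (6.55%) and 11 lost (1.60%), both below the 10.1% and 2.90% of all regions (median -0.01). Near Fli1, an ETS factor of HSCs and megakaryocytes, the region chr9:32595232-32595735 had 1.15, 1.46, 1.60 and 0.915 CPM in YHSCs and 4.45, 4.62, 3.82 and 4.14 CPM in OHSCs.

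The lists of blood lineages and of RUNX and GATA factors had gained shares of 3.92% to 10.5%, near or below the 10.1% of all regions. For megakaryocyte and platelet genes 35 of 333 regions were gained and 6 lost, for RUNX and GATA factors 23 of 232 and 2, and for erythroid genes 17 of 235 and 8. The counts were for lymphoid genes 43 of 497 and 17, for myeloid genes 15 of 201 and 4, for T and NK cell genes 11 of 141 and 6, and for B cell genes 2 of 51 and 1. With scaling on promoters, which gained 12361 of all 89245 regions, the gained regions were 47 for RUNX and GATA factors, 21 for T and NK cell genes and 52 for megakaryocyte and platelet genes. These shares were larger than that of all regions. Interferon response genes had 2 gained and 2 lost of 127 regions, and genes of the major histocompatibility complex and antigen presentation 3 and 0 of 78. The circadian clock list had 17 gained and 14 lost of 164 regions, with 8.54% lost beside 2.90% of all regions. Its lost regions were 4 with scaling on promoters and 12 with the offset on the mean level. The AP-1, BATF and MAF genes themselves had 11 gained and 12 lost of 224 regions, a balance that was 16 and 5 with scaling on promoters and 11 and 18 with the offset on the mean level.

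**Figure D3:**
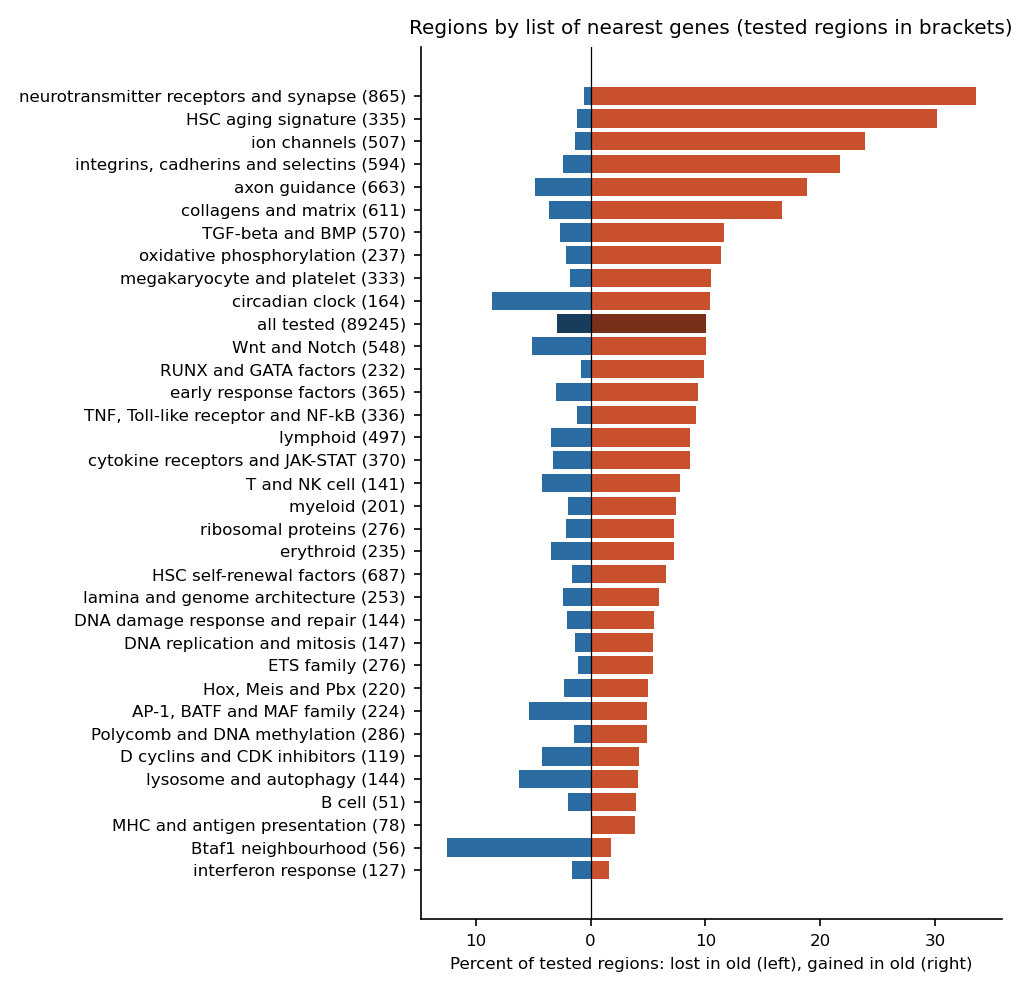
Percent of tested regions gained in OHSCs (bars to the right) and lost (bars to the left) for 34 lists of nearest genes and for all tested regions (dark bars), with the number of tested regions in brackets. The synapse list reached 33.5% gained and the list of genes that rise in aged HSCs 30.1%, against 10.1% of all regions.

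The next regions are each the largest gain of a list: megakaryocyte and platelet genes, Wnt and Notch genes, and TNF, Toll-like receptor and NF-kB genes. They are not typical of their lists. Of the 548 Wnt and Notch regions, 55 were gained (10.0%) and 28 lost (5.11%), beside 10.1% and 2.90% of all regions. The shares of the other lists are given above. Near Prkcq, a protein kinase C of T cells and platelets, the region chr2:11356762-11357268 had 0.753, 0.598, 0.724 and 0.648 CPM in YHSCs and 5.70, 6.66, 5.35 and 5.27 CPM in OHSCs (log2 fold change 3.05 ± 0.21), with Prkcq mRNA not called (127 to 131 and 105 to 130 CPM). Near Wnt5a, a ligand of the noncanonical Wnt pathway, the region chr14:28377187-28377864 within an intron of Erc2 had 0.396, 0.598, 0.648 and 0.915 CPM in YHSCs and 4.40, 4.69, 5.77 and 6.75 CPM in OHSCs (log2 fold change 3.06 ± 0.22). Wnt5a mRNA rose (0.577 to 1.49 CPM in young and 1.80 to 6.51 CPM in old libraries, edgeR adjusted p = 0.000345). Near Bcl3, a coactivator of NF-kB, the region chr7:19831791-19832241 had 1.47, 1.26, 1.68 and 0.915 CPM in YHSCs and 7.05, 8.73, 7.73 and 9.48 CPM in OHSCs, and Bcl3 mRNA rose (22.8 to 32.2 and 41.3 to 71.4 CPM, edgeR adjusted p = 0.000151).

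Calls at promoters were then set beside the mRNA of the same genes. Of 290 genes with a gained promoter, 202 were tested for mRNA, and 57 of these rose (28.2%) and 0 fell, beside 5.44% and 3.13% of the genes with any tested promoter region. Of 317 genes with a lost promoter, 274 were tested, and 47 fell (17.2%) and 9 rose. These counts take each gene at its promoter region of lowest p. Those of losses depend on the scaling, since lost promoter regions went from 329 to 132 with scaling on promoters. Where a call at any promoter region of a gene was enough, 57 of 207 genes with a gain rose and 1 fell, Slc28a2, and 48 of 293 with a loss fell and 10 rose. Counted over all regions nearest to a gene, 3.90% of genes with 0 gained nearest regions rose in mRNA, 8.22% with 1, 12.7% with 2 to 4 and 18.8% with 5 or more. For lost regions the shares of genes that fell in mRNA were 2.62%, 7.03%, 15.5% and 14.8% for the same numbers, the last over 27 genes. Of these 27, 4 fell and 4 rose.

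Kcnb2, a voltage-gated potassium channel, and Tmem215, a transmembrane protein, had gained promoters and higher mRNA. The Kcnb2 promoter had 9.51, 10.7, 10.9 and 8.43 CPM in YHSCs and 28.4, 28.0, 23.6 and 28.6 CPM in OHSCs (log2 fold change 1.46 ± 0.09, edgeR adjusted p = 1.48e-20), and its mRNA rose (0.33 to 1.03 CPM in young and 8.92 to 25.4 CPM in old libraries). The Tmem215 promoter had 9.27, 10.6, 9.34 and 10.98 CPM in YHSCs and 19.5, 20.5, 17.2 and 16.4 CPM in OHSCs, and its mRNA rose (0.618 to 1.55 CPM in young and 14.9 to 47.0 CPM in old libraries). For both, accessibility in each YHSC library was well above the 1.5 CPM of the filter.

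The promoter of Nupr1, a small nuclear protein induced by stress, gained from 1.11, 0.665, 1.87 and 1.33 CPM to 7.25, 8.81, 6.52 and 7.26 CPM (log2 fold change 2.52 ± 0.18, edgeR adjusted p = 1.05e-16), with mRNA of 70.6 to 77.3 CPM in young and 246 to 312 CPM in old libraries. The promoter of Gpr183, a receptor for oxysterols that guides immune cells, had 2.10, 2.53, 3.01 and 3.32 CPM in YHSCs and 4.30, 6.39, 4.99 and 5.54 CPM in OHSCs, with mRNA of 6.92 to 9.99 and 92.5 to 145 CPM. On the log2 scale the mRNA of Nupr1 rose by 1.86 ± 0.06 and that of Gpr183 by 3.90 ± 0.19.

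Among the 52 promoter regions of the genes that rise in aged HSCs, 9 were gained and 0 lost, with a median of 0.14 on the log2 scale, beside 1.91% gained and a median of -0.13 over all promoter regions. At 1 region for each of 40 genes, the strongest in the first YHSC library, 7 were gained and 0 lost: Clca3a1, Gstm2, Mt1, Mt2, Nupr1, Selp and Tm4sf1, of which Selp lost its call with either offset, with no CPM filter and without 1 YHSC or 1 OHSC library. Clca3a1, of a family of chloride channel regulators, had 15.9, 13.5, 14.7 and 13.0 CPM in YHSCs and 29.2, 32.1, 26.2 and 23.5 CPM in OHSCs (log2 fold change 0.96 ± 0.08). Mt1 and Mt2, neighbouring genes of metal-binding metallothioneins, gained alike, by 0.76 ± 0.07 and 0.71 ± 0.08 on the log2 scale, while their mRNA rose by 2.46 ± 0.06 and 3.25 ± 0.12. Gstm2, a glutathione transferase, had 1.43, 1.73, 1.33 and 1.79 CPM in YHSCs and 4.35, 5.04, 4.88 and 4.41 CPM in OHSCs (log2 fold change 1.58 ± 0.19).

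Of the 58 promoter regions of HSC self-renewal factors, 1 was gained and 0 lost, with a median of -0.11. At the strongest region of each of 37 genes, taken in the same way, 0 were gained and 0 lost. The Hlf promoter, of a factor that marks HSCs, had 25.9, 25.1, 25.3 and 26.8 CPM in YHSCs and 18.0, 17.1, 19.4 and 18.7 CPM in OHSCs (log2 fold change -0.50 ± 0.07, edgeR adjusted p = 9.16e-08), below the 1.5-fold limit. Hlf mRNA was 598 to 644 CPM in young and 544 to 618 CPM in old libraries and was not called.

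**Figure D4:**
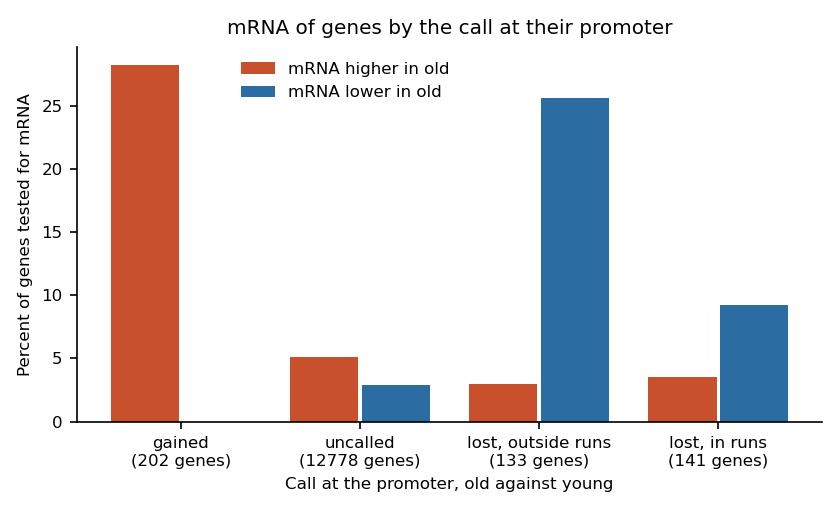
Percent of genes with higher (left bars) or lower mRNA (right bars) in OHSCs by the call at their promoter region of lowest p, with losses split by whether they lay in the 5 chromosome runs described further on. Of 202 genes with a gain there 28.2% rose and 0 fell, of 133 with a loss outside the runs 25.6% fell, and of 141 with a loss in the runs 9.22% fell.

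A few promoters and mRNAs went opposite ways. At a promoter region of Slc28a2, a nucleoside transporter, which is not its region of lowest p, accessibility rose (0.555, 1.20, 1.11 and 0.648 CPM to 2.00, 1.69, 1.87 and 1.52 CPM, edgeR adjusted p = 0.00171), while Slc28a2 mRNA fell (42.0 to 50.5 CPM in young and 17.7 to 24.6 CPM in old libraries). That region lay 0.868 kb from the nearest start. The promoter of Ramp2, a partner of the adrenomedullin receptor, fell by 0.62 on the log2 scale, with 4.60, 4.39, 5.45 and 5.64 CPM in YHSCs and 3.65, 2.85, 3.94 and 2.77 CPM in OHSCs, while Ramp2 mRNA rose (10.2 to 14.96 CPM in young and 35.6 to 75.9 CPM in old libraries). Both changes at promoters lost their call in some of the alternative settings.

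Losses of accessibility were fewer than gains and are described next, first at promoters whose mRNA also fell. At the promoter of Nrk, a kinase on the X chromosome, YHSCs had 28.5, 26.9, 30.3 and 28.9 CPM and OHSCs 15.7, 15.5, 13.7 and 17.0 CPM (log2 fold change -0.89 ± 0.07, edgeR adjusted p = 7.03e-15), and Nrk mRNA fell (30.6 to 33.8 CPM in young and 5.10 to 8.42 CPM in old libraries). The promoter of Rgs7bp, which anchors regulators of G protein signalling, had 33.7, 36.2, 32.5 and 34.1 CPM in YHSCs and 23.5, 22.7, 20.1 and 21.6 CPM in OHSCs, and its mRNA fell (8.01 to 10.6 CPM in young and 0.260 to 1.21 CPM in old libraries). The Rgs7bp promoter lay near the 1.5-fold limit and lost its call in some alternative settings. The promoter of Ccr7, the homing receptor of lymphocytes, had 1.74, 1.80, 3.05 and 2.14 CPM in YHSCs and 1.25, 0.962, 1.17 and 0.702 CPM in OHSCs, and its mRNA fell (1.36 to 2.82 CPM in young and 0.0836 to 0.537 CPM in old libraries). In an intron of Satb1, a chromatin organizer needed for lymphoid output of HSCs, the region chr17:51787923-51788550 had 3.25, 4.39, 3.20 and 3.66 CPM in YHSCs and 1.75, 1.65, 1.99 and 1.76 CPM in OHSCs (log2 fold change -1.002 ± 0.19, edgeR adjusted p = 3.65e-05), and Satb1 mRNA fell by 1.56 on the log2 scale.

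Markers of mature blood cells are given beside these losses. In mRNA, the list of 16 B cell genes summed to 171 to 262 CPM in young and 131 to 153 CPM in old libraries, and 12 of the 16 fell and 0 rose, beside 2.77% and 4.80% of all genes tested. At promoters, B cell markers had a region for 2 of 5 genes, with a summed 25.8 to 29.6 CPM in YHSCs and 30.0 to 32.9 CPM in OHSCs. T and NK cell genes summed to 87.6 to 93.8 CPM in young and 133 to 165 CPM in old mRNA libraries, but of the 12 tested 1 rose and 1 fell, with a median of -0.20 on the log2 scale. The one that rose was Klrb1c, a receptor of NK cells, whose mean was 15.7 CPM in the 4 young libraries and 69.3 CPM in the 8 old ones, chosen after its values were seen. Their 5 defining markers had a promoter region for 2 genes (5.32 to 6.83 and 6.36 to 7.30 CPM). Myeloid genes summed to 925 to 1124 CPM in young and 1158 to 1406 CPM in old mRNA libraries, which did not overlap. Of 26 tested 5 rose and 2 fell, with a median of -0.07 on the log2 scale. The largest rises in mean CPM, picked after values were seen, were those of Prtn3 (125 to 312) and Csf3r (105 to 198). The genes that fell were Mpo (7.65 to 0.799) and Csf2rb (27.5 to 11.3). The 5 myeloid markers had a promoter region for 1 gene (2.06 to 3.43 and 1.77 to 3.51 CPM), whereas all 10 HSC markers had one (247 to 257 and 229 to 238 CPM). The part of these cells in the changes was not tested.

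Adgra2, an endothelial receptor of the Wnt pathway, had the most lost regions of any gene outside the runs of chromosome windows described further on, 7 of 11. At the intronic region whose sequence is shown above, YHSCs had 38.6, 37.4, 35.6 and 38.7 CPM and OHSCs 18.4, 15.8, 19.2 and 19.8 CPM (log2 fold change -1.04 ± 0.07, edgeR adjusted p = 7.12e-19). Adgra2 mRNA fell, with 5.65 to 7.48 CPM in young and 1.63 to 2.97 CPM in old libraries (log2 fold change -1.43 ± 0.15, edgeR adjusted p = 7.44e-08).

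The most significant loss of all was at chr8:16263791-16264585, in an intron of Csmd1 (nearest start Myom2, 1207 kb away), with 26.6, 26.1, 26.8 and 25.6 CPM in YHSCs and 5.25, 4.58, 5.46 and 4.45 CPM in OHSCs (log2 fold change -2.41 ± 0.09, edgeR adjusted p = 2.51e-28). The region chr2:69047269-69047755 in an intron of Cers6, a ceramide synthase, had 12.5, 11.9, 11.1 and 11.2 CPM in YHSCs and 2.95, 1.27, 2.18 and 2.19 CPM in OHSCs (log2 fold change -2.46 ± 0.15). Neither Myom2 nor Nostrin, the nearest genes, changed in mRNA by the test (edgeR adjusted p = 0.804 and 0.794). Both were low, with means in young and old libraries of 0.656 and 0.556 CPM for Myom2 and 0.944 and 0.819 CPM for Nostrin, so the test says little.

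Of the 42 losses beyond -2 on the log2 scale, 10 lay in exons (23.8%), beside 6.14% of all tested regions. In an exon of Cabin1, an inhibitor of calcineurin, the region chr10:75684100-75684652 had 4.44, 4.12, 5.15 and 5.11 CPM in YHSCs and 0.350, 0.385, 0.507 and 0.312 CPM in OHSCs (log2 fold change -3.58 ± 0.24). In an exon of Rrm1, a subunit of ribonucleotide reductase, the values were 3.45, 4.06, 3.09 and 3.93 against 0.700, 0.654, 0.546 and 0.702 CPM, and in an exon of Atg14, an autophagy factor, 2.73, 1.99, 2.02 and 1.68 against 0.250, 0.308, 0.195 and 0.429 CPM. The mRNA of Cabin1, Rrm1 and Atg14 differed by -0.12, -0.16 and -0.05 on the log2 scale and was not called.

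A part of the losses lay in runs on 4 chromosomes. The genome was divided into windows of 5 Mb, and for the 446 windows with at least 10 tested promoter regions the median promoter log2 fold change was taken, which was -0.11 over the median window. In 31 windows it was -0.3 or lower, of which 8 lay on chromosome 11, 4 on chromosome 12, 11 on chromosome 19 and 2 on chromosome 1, where adjacent windows formed 5 runs, and 6 on other chromosomes. These windows were chosen by their values, so what follows describes them and tests nothing. In 15 windows each of the 4 OHSC libraries was at -0.3 or lower on its own, and in 0 windows was any YHSC library. Values are relative to the YHSC mean, so YHSC libraries lie near 0 by construction. The OHSC libraries had promoter medians of -0.107, -0.132, -0.144 and -0.098 outside the runs as well.

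The largest shift of a run lay at 50 to 85 Mb of chromosome 11, where the median of 473 promoters was -0.42 and 96.4% were below 0. The OHSC libraries had medians of -0.40, -0.46, -0.42 and -0.41 relative to the YHSC mean, and the YHSC libraries -0.02, -0.02, 0.03 and 0.02. Of the 1474 tested regions there, 322 were lost and 25 gained. With scaling on promoters 148 were lost. On the same chromosome the median was -0.09 at 0 to 50 Mb and -0.24 at 85 to 125 Mb.

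The other runs had medians of -0.38 at 100 to 120 Mb of chromosome 12 (163 of 1072 regions lost and 81 gained), -0.34 at 0 to 45 Mb (152 lost and 43 gained of 1672) and -0.33 at 55 to 65 Mb of chromosome 19 (4 gained and 14 lost of 233), and -0.35 at 165 to 175 Mb of chromosome 1 (65 lost and 24 gained of 504). Intron and intergenic regions were shifted as well, with medians of -0.37 in the run of chromosome 11, -0.27 in that of chromosome 12, -0.22 and -0.17 in those of chromosome 19 and -0.30 in that of chromosome 1. The lowest window was 70 to 75 Mb of chromosome 11, with -0.63, -0.64, -0.63 and -0.57 in the OHSC libraries and 106 of 208 regions lost. With scaling on promoters the lost regions were 86 in the run of chromosome 12, 57 and 10 in those of chromosome 19, 29 in that of chromosome 1 and 56 in the lowest window.

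Within that window lay the promoters of Pafah1b1, a regulator of dynein, and Shpk, a kinase of sugar metabolism. The Pafah1b1 promoter had 59.7, 65.4, 61.2 and 64.4 CPM in YHSCs and 33.4, 31.5, 36.1 and 33.3 CPM in OHSCs (log2 fold change -0.90 ± 0.05, edgeR adjusted p = 7.27e-21), and the Shpk promoter 86.4, 88.0, 82.9 and 80.5 against 46.8, 48.2, 49.2 and 53.3 CPM (log2 fold change -0.77 ± 0.05). Their mRNA did not change by the test (log2 fold change -0.08 ± 0.05 and 0.03 ± 0.08). Aspa, of the enzyme that splits N-acetylaspartate, lay in the same window and went opposite ways, with 13.2, 14.8, 13.4 and 16.7 CPM in YHSCs and 8.95, 8.43, 8.82 and 9.05 CPM in OHSCs at its promoter and an mRNA that rose (10.5 to 12.1 CPM in young and 34.8 to 45.0 CPM in old libraries).

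The runs held 5.55% of tested regions but 27.6% of all lost regions and 48.0% of lost promoters (158 of 329). Outside them, 8822 regions were gained and 1876 lost, and 294 promoters gained and 171 lost. In the other readouts of the same places, the medians of mRNA, old minus young on the log2 scale, were 0.0038 in the run of chromosome 11, 0.05 in that of chromosome 12, 0.02 and -0.04 in those of chromosome 19 and 0.0060 in that of chromosome 1, and the medians of H3K27ac lay between 0.04 and 0.05 in all 5 runs. The 2 young H3K27ac libraries lay 0.07 to 0.09 above and below their own mean there, a wider spread. On the rest of chromosome 11 the H3K27ac medians were 0.04 and 0.07, and on that of chromosome 12 0.05. Lost promoters outside the runs went with lower mRNA for 34 of 133 tested genes (25.6%), and those in the runs for 13 of 141 (9.22%). The runs were 0.18 to 0.34 below the median of all promoters in each of 3 other scalings, and their promoters' median G and C content (53.6% to 62.8%) lay on either side of that of all promoters (59.0%).

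**Figure D5:**
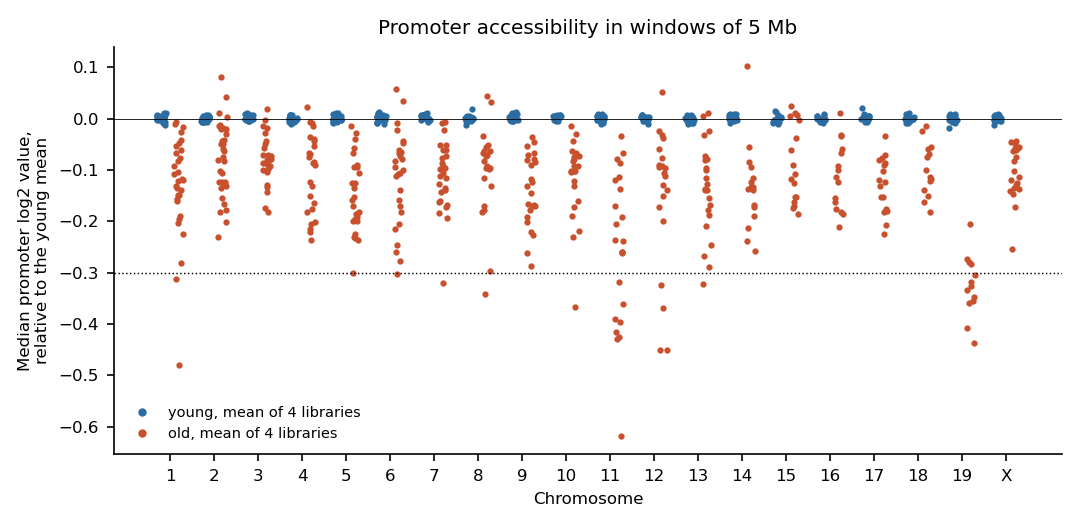
Median promoter log2 value of each window of 5 Mb with at least 10 promoter regions, relative to the YHSC mean, by chromosome, for the mean of the 4 YHSC libraries and of the 4 OHSC libraries, with a dotted line at -0.3. Several OHSC windows on chromosomes 11, 12 and 19 lie below the dotted line, as do a few on other chromosomes, and the lowest is the window at 70 to 75 Mb of chromosome 11. YHSC points lie near 0 by construction, since values are relative to the YHSC mean.

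Some genes named for gains or losses belong to these runs. The Rcvrn promoter, of a calcium sensor of photoreceptors, gained within the run of chromosome 11 (1.11, 0.798, 0.686 and 0.458 to 3.60, 3.35, 4.96 and 3.08 CPM), and its mRNA rose (0 to 0.206 CPM in young and 3.84 to 10.8 CPM in old libraries). Near Rorb, an orphan nuclear receptor, the region chr19:19402721-19403475 had 0.396, 0.598, 0.801 and 0.458 CPM in YHSCs and 4.05, 6.66, 4.29 and 4.02 CPM in OHSCs, and Rorb mRNA rose (4.29 to 6.84 CPM in young and 26.2 to 37.6 CPM in old libraries). The genes with the most lost regions were Rapgef5 (17 of 49), Dlk1 (10 of 20), Rap1gap2 (9 of 12) and Tmem121 (9 of 13), all within the runs, and Dlk1 mRNA spread from 11.7 to 48.6 CPM between old mice. The mRNA of Rap1gap2 and Tmem121 rose (log2 fold change 0.93 and 0.72, edgeR adjusted p = 0.00558 and 0.00584). All 56 regions of the 10 genes of the Btaf1 neighbourhood on chromosome 19 lay in a run, with 1 gained and 7 lost and a median of -0.34. The lost count was 1 with scaling on promoters and 11 with the offset on the mean level. The Btaf1 promoter had 26.8, 25.0, 29.4 and 27.4 CPM in YHSCs and 19.96, 20.9, 19.9 and 19.6 CPM in OHSCs, which did not reach the 1.5-fold limit, and Btaf1 mRNA was 79.4 to 103 and 110 to 156 CPM. That mRNA count is per gene and does not separate transcripts. The authors report a rise of a shorter Btaf1 variant and no change of the canonical one.

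At the other end were windows with few open regions. When the windows with at least 20 tested regions were divided into 4 groups of similar size by that number, 14.999% of regions were gained in the sparsest group, followed by 12.7%, 9.71% and 7.15% in the denser groups. The 4 windows with the highest median over all regions, chosen by that value, are given next. At 60 to 65 Mb of chromosome 12, 25 of 36 regions were gained, with a median over all regions of 0.89, 1.17, 0.73 and 0.98 in the OHSC libraries relative to the YHSC mean. At 75 to 80 Mb of chromosome 6 it was 27 of 39 regions. Of those at 110 to 115 Mb of chromosome 3, 17 of 36 were gained, and of those at 10 to 15 Mb of chromosome 5, 29 of 70, with 0 lost regions in all 4 windows. In the window next in rank, at 70 to 75 Mb of chromosome 3, 17 of 39 regions were gained and 1 was lost. The median G and C content of regions in these windows was 39.6% to 42.5%, and its part was not tested.

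The scale of the comparison was set by the normalization across all regions, under which the median of all regions was -0.01 and that of promoters -0.13. Gains were 77.6% of called regions, 47.9% of called promoters and 69.5% of called genes. When libraries were scaled on promoter regions, the medians moved to 0.12 for all regions and -0.0025 for promoters, and gains to 90.1%, 77.4% and 89.7%. With an offset on G and C content gains were 64.2% of called promoters, and for genes they were 81.5% with an offset on the mean level and 82.1% with DESeq2. Directions at promoters are relative to the scaling, and gains outnumbered losses among all regions under each of these settings.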

How the data were processed

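The authors trimmed ATAC-seq reads with cutadapt, aligned them to mm10 with BWA, removed duplicates, multi-mapped reads and blacklisted regions, called narrow peaks with MACS2 and merged them over ages to consensus regions; raw counts per such region were deposited. For ATAC-seq, tool versions, the shift of read ends, the counting tool and whether coordinates start at 0 or 1 are not stated. The mRNA-seq files hold raw counts per gene, which the authors obtained with trim galore, STAR and featureCounts. For H3K27ac, the authors deposited a signal per peak, scaled to an equal number of reads for all libraries. Peaks of H3K27ac, H3K4me3 and H3K27me3 are those of tables that cover both ages. The 8 per-sample columns tied to no listed sample, 4 of ATAC-seq and 4 of histone marks, were not used.

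Counts were scaled with TMM and the ages tested by the quasi-likelihood method of edgeR with robust dispersions (edgeR 4.0.16, R 4.3.3), with Benjamini-Hochberg adjustment over all tested regions or genes. Regions needed more than 1.5 CPM in at least 4 libraries to be tested, and a 1.5-fold change with an adjusted p under 0.01 to be called; genes in mRNA needed filterByExpr, 1.5-fold and 0.05. Errors after log2 fold changes are approximate SEs, taken as the absolute log2 fold change divided by the square root of edgeR's F statistic. CPM use TMM. A region belongs to the protein-coding gene with the nearest start, and a promoter spans 1000 bp upstream to 100 bp downstream of one, so a nearest gene need not be a target. Places and sequences came from the annotation and genome of GRCm38, and overlaps from bedtools 2.31.1. ATAC-seq libraries differed by more than sampling noise, so none was counted as a repeat.

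The members and lists were chosen with earlier results of these data known. Regions were named by rule: the largest and most significant changes, the largest at promoters, the genes with the most changed regions, the largest change of each list, promoters whose mRNA changed the same or the opposite way, and promoters of HSC factors and of genes that rise in aged HSCs. Except for the promoters of these last groups, only called regions whose ages did not overlap were named. Their separation therefore follows from the choice. The region near Slc8a1 was chosen for its sequence after values were seen, and not all regions the rule gave are printed. Alternatives were DESeq2 1.42.0, other scalings, offsets on mean level and G and C content, no filter, other windows, and leaving out each library. The fits were tested on simulated counts.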

Additional observations from a re-analysis of the deposited data

Results flagged for a closer look

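In groups of 4 libraries, 1 library stood far from the other 3 by Dixon's criterion in 8 of 184 groups looked at (4.35%), and chance flags about 1 in 20. YHSC replicate 2 had 15427933 counted reads (the others 25280311 to 26260337) and OHSC replicate 5 had 20033166 (the others 25151543 to 25920194). OHSC replicate 6 was high at the intronic region of Tmem132c, with 25.0 CPM (the others 19.6 to 20.3), at the region near Negr1, with 6.39 CPM (3.63 to 3.94), and at the region near Rorb, with 6.66 CPM (4.02 to 4.29). OHSC replicate 7 was low at the Kcnb2 promoter, with 23.6 CPM (28.0 to 28.6). YHSC replicate 4 was low at the promoter of Dyrk4, a kinase, with 2.52 CPM (3.20 to 3.29), and OHSC replicate 8 at an intronic region of Lama1, a laminin chain, with 0.898 CPM (1.04 to 1.05). All 6 regions had been named from called regions whose ages did not overlap.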

How the results depend on the processing

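Beyond a fold of 2, 4245 regions were gained and 578 lost, 119 and 41 promoters, and 175 and 25 genes by summed counts. With scaling on promoters, losses fell to 1353 regions, 132 promoters, 84 genes and 124 regions of the gene lists, and 26 lost promoters had lower mRNA. Lost promoters were 201 with the offset on G and C content and 171 without the runs, an alternative chosen after seeing the data, as were those without mitochondrial regions, the scaling on promoters and the count over any promoter region for the mRNA comparison. Genes lost by summed counts were 132 with the offset on G and C content, 136 with that on mean level and 129 with DESeq2. Where marks had to cover at least 0.5 of a region, 24.2% of gained and 31.6% of lost regions had H3K27ac, 9.70% of gained H3K4me3 and 20.5% of gained H3K36me3. In whole regions, the shares of gained and lost regions were 33.9% and 15.2% for AP-1, 38.4% and 19.8% for GATA, 30.8% and 13.6% for RUNX and 8.77% and 15.3% for PU.1. The Alcam promoter turned from -0.12 to 0.0147 with scaling on promoters, 0.0436 with the offset on mean level and 0.0222 with that on G and C content. The cause of these differences was not tested.

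Leaving out 1 library gave 8114 to 9308 gained and 2224 to 3103 lost regions, 266 to 333 and 292 to 357 promoters, and 446 to 551 and 192 to 249 genes. Over 81 named regions and 16 settings, 1271 values kept direction and call, 22 lost the call (promoters of Selp, Slc28a2, Rgs7bp, Cd83, Ramp2 and Cd276) and 3 turned, all of Alcam.

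No paired analysis was possible because the ATAC-seq ages share no replicate number. For mRNA, replicate numbers 1 to 4 were shared, and deviations of same-numbered libraries correlated at -0.0041, -0.0284, 0.0849 and -0.119, so they share only a number. With the replicate block and old replicates 5 to 8 left out, 54 gained promoters had higher and 44 lost promoters lower mRNA, with 889 genes up and 517 down in all, against 913 and 527 without the block. Depth limits weakly open regions most, since 1 read is worth 0.0381 to 0.0648 CPM.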
